A study of Mus musculus with 18 samples.

Results

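The comparison described here is the average effect of Eomes deletion on splenic natural killer (NK) cell RNA over 3 maturation stages. All 18 libraries of the series entered it: 9 from Eomes-deleted cells (KO) and 9 from wild-type cells (WT), with 3 libraries of each genotype per stage. KO cells came from C57BL/6 mice that carried 1 Ncr1-iCreERT2 knock-in allele (KI/WT), the Rosa26YFPLSL reporter and Eomesfl/fl, and that had been given tamoxifen for 3 days. In these mice a tamoxifen-activated Cre recombinase is made from the Ncr1 gene, which is active in NK cells and other NKp46+ lymphoid cells, and it removes the floxed part of Eomes and switches on a YFP reporter in the Rosa26 locus. WT cells came from C57BL/6 mice whose label says only WT. The mice were 8 to 12 weeks old and spleens were pooled. The labels give 3 separate experiments but do not tie replicate numbers to them, so p-values measure the spread between these samples. Tamoxifen is stated once for the mice in general and once for the KO mice only, and nothing says whether WT mice carried Cre. Where WT mice lacked either, the drug, Cre and the deletion cannot be told apart. Stage II cells were sorted as CD27+CD11b-, stage III cells as CD27+CD11b+ and stage IV cells as CD27-CD11b+. Of 41388 genes listed, 14156 had enough counts to be tested, and each was fitted with stage as a block and 1 KO against WT term.

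Eomes is a T-box transcription factor that NK cells share with its relative T-bet (Tbx21), and both bind similar DNA elements. In mice, NK cells need Eomes for full maturation, and its absence is one of the features by which type 1 innate lymphoid cells (ILC1) are told from NK cells. Maturation in the spleen runs from CD27 single-positive through double-positive to CD11b single-positive cells, with falling proliferative capacity and rising cytotoxic equipment. An average over the stages asks which transcripts differ between KO and WT in the mean over stages. A gene can pass on a large effect at a single stage. The average is blind to effects that cancel between stages.

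Total counts ran from 18684350 to 26092733 in KO libraries and from 19409764 to 28365837 in WT libraries. NK cell transcripts were abundant in both genotypes: Klrb1c, which encodes NK1.1, lay between 2024 and 3311 CPM (each gene's counts scaled to the library total) in KO libraries and between 2159 and 3260 CPM in WT libraries. KO stage III replicates 1 and 3 stood apart, detecting 14824 and 16536 genes where the KO replicate 2 of that stage detected 21454. At the other end, WT stage II replicate 1 detected 29859 genes and KO stage IV replicate 3 detected 27912. The remaining libraries detected at most 21556.

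The WT libraries were not alike, and this touches the results below. All values per library that follow are CPM after TMM scaling, which adjusts library totals so that most genes match between libraries. Ncr1, the gene that carries the Cre knock-in on 1 allele in KO mice, lay between 1631 and 2216 CPM in KO libraries, between 2043 and 2102 CPM in the 3 libraries of WT replicate 1, and between 3574 and 4189 CPM in the 6 libraries of WT replicates 2 and 3. Gt(ROSA)26Sor, the noncoding transcript of the Rosa26 locus, lay between 2.18 and 3.07 CPM in KO libraries, between 2.14 and 2.59 CPM in WT replicate 1, and between 20.2 and 38.1 CPM in WT replicates 2 and 3. For both transcripts WT replicate 1 lay with the KO libraries and away from the other WT libraries. Xist, the RNA of the inactive X chromosome, was at 7.23 to 34.5 CPM in KO libraries, at 34.3 to 41.9 CPM in WT replicate 1 and at 0 to 0.648 CPM in WT replicates 2 and 3, while Y-linked transcripts were present in all 18. Esr1, the oestrogen receptor gene whose human ligand-binding domain is part of CreERT2, was at 32.6 to 71.2 CPM in KO libraries, at 62.9 to 73.6 CPM in WT replicate 1 and at 8.68 to 16.2 CPM in WT replicates 2 and 3. Phlda3 and Ccng1, a pair of p53 target genes, split the WT libraries the same way. In all, 45 of the 14156 genes had every KO library and every WT replicate 1 library on one side of every library of WT replicates 2 and 3, and 19 of the 45 were called in the average. These 6 transcripts and the 45 genes were picked after their values were seen. Some results are therefore also given with each kind of control alone, but for most named genes they are not. What the WT libraries' difference contributes to a result was not tested beyond that.

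**Figure D1:**
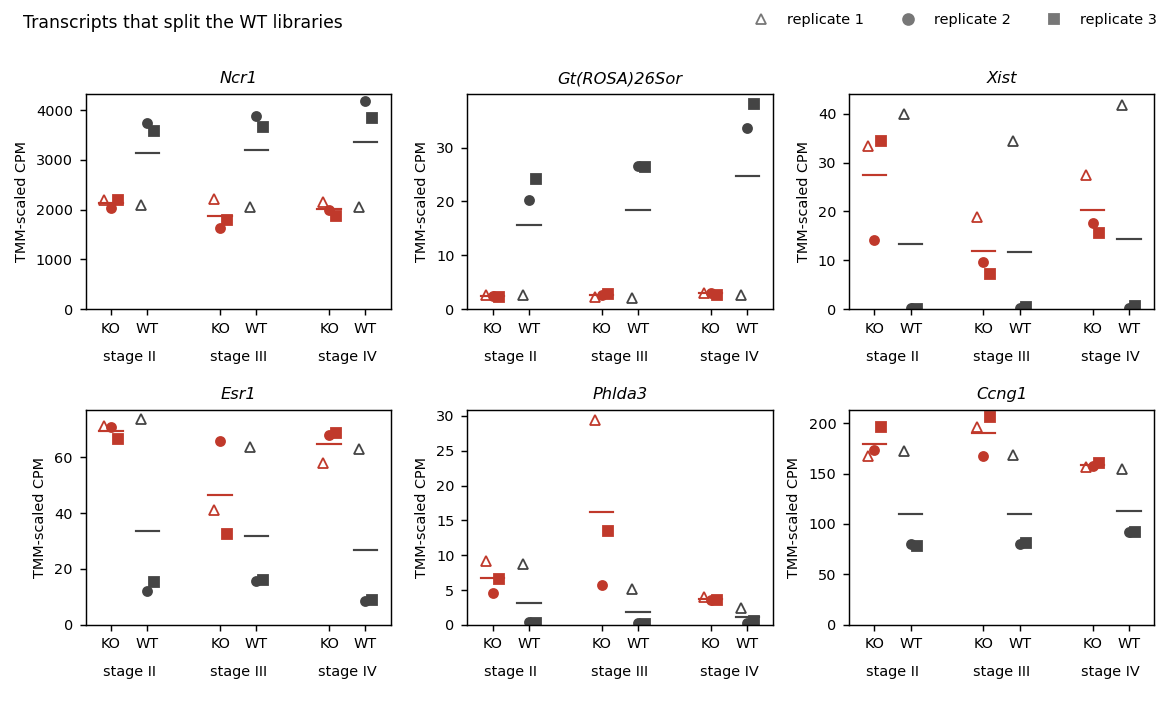
Each panel plots TMM-scaled CPM of 1 transcript in every library, KO left of WT within each stage; triangles are replicate 1, circles replicate 2, squares replicate 3, and bars are means of 3 libraries. For Ncr1, Gt(ROSA)26Sor, Xist, Esr1, Phlda3 and Ccng1 the WT triangle lies apart from the other WT libraries and on the side of the KO libraries (Ncr1 at 2043 to 2102 CPM in WT replicate 1, against 3574 to 4189 CPM in WT replicates 2 and 3).

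Eomes itself was reduced at every stage but not absent. At stage II it stood at 51.4, 71.1 and 57.1 CPM in KO libraries, against 169, 208 and 209 CPM in WT libraries. At stage III it stood at 181, 153 and 173 CPM in KO libraries, against 278, 255 and 282 CPM in WT libraries. At stage IV it stood at 119, 111 and 86.2 CPM in KO libraries, against 245, 244 and 280 CPM in WT libraries. KO and WT libraries did not overlap within any stage, and WT replicate 1 was the lowest WT library at stage II only. The average log2 fold change was -1.22 ± 0.13 (SE), an adjusted p of 1.43e-05 in edgeR's quasi-likelihood test with Benjamini-Hochberg adjustment, the two-sided test behind every adjusted p of a gene below. The stage effects were -1.70 at stage II, -0.69 at stage III and -1.28 at stage IV, and they did not pass the test for a difference between stages (interaction adjusted p = 0.11). Reads per gene do not say whether the remaining RNA came from undeleted cells or from transcripts that lacked the floxed part, and in sorted bulk cells fewer expressing cells and less RNA per cell cannot be told apart. Against WT replicate 1 alone the fold change was -1.16.

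Over all genes, 574 of 14156, or 4.05%, passed an adjusted p of 0.05 in the average: 311 higher in KO (2.2%) and 263 lower (1.86%). At least a 2-fold change was reached by 108 of the higher and 77 of the lower genes, and the median absolute log2 fold change of the 574 was 0.74. The sign was the same at all 3 stages for 560 of them. A stricter view without a model counts genes whose KO and WT libraries did not overlap at any stage, in the same direction: 243 genes, or 1.72%, of which 122 had all KO libraries above (0.862%) and 121 all KO libraries below (0.855%). Of these 243, 227 were among the 574. Libraries of one genotype and replicate number tended to deviate together across stages, with 15 of 18 such pairs correlating over 0.1, whereas the 574 calls treat libraries as independent. With these 3 libraries as a random block in limma 466 genes were called, and with their counts summed 259. With DESeq2 the count called was 996, and with the control libraries of WT replicate 1 alone it was 43, or 0.304%. Of those 43, 39 were among the 574, and 573 of the 574 kept their sign. The fit reuses KO and WT libraries that gave the 574, so neither number is independent support. With only WT replicate 2 or only WT replicate 3 as control, 106 and 116 genes were called.

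**Figure D2:**
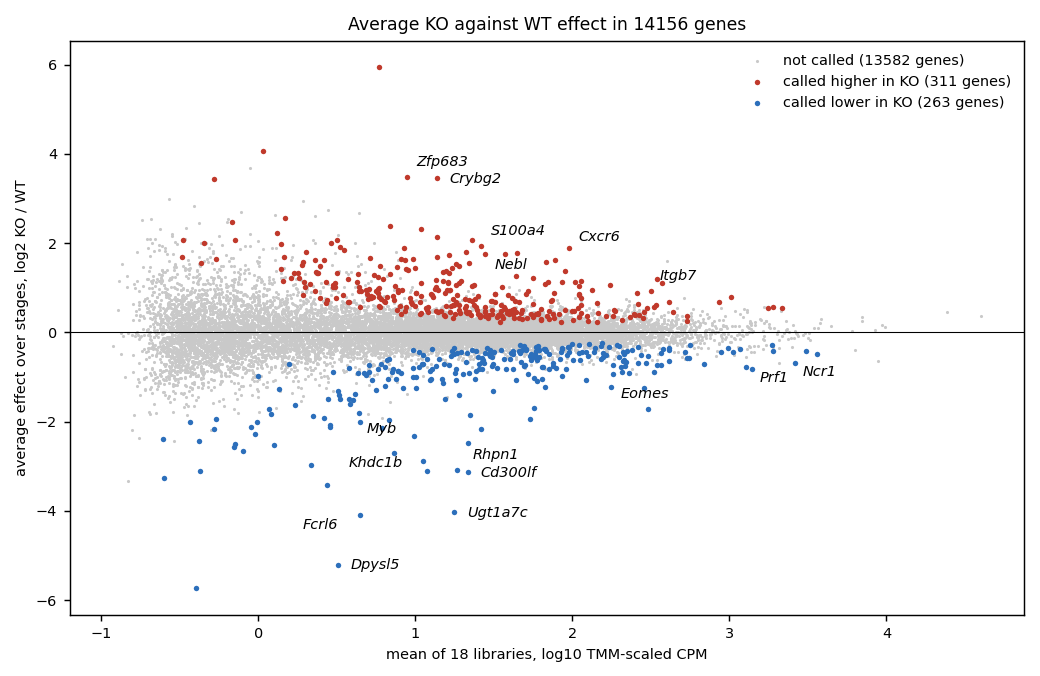
Each point is 1 of 14156 genes, with its mean over 18 libraries on the x axis (log10 TMM-scaled CPM) and its average KO against WT effect over stages on the y axis (log2). The 311 red genes were called higher and the 263 blue genes lower in KO; among called genes of at least 1 CPM whose libraries did not overlap at any stage, Dpysl5 is the lowest at -5.21 and Zfp683 the highest at 3.49, with Prss34 (5.95) and Gm28438 (-5.74) lying beyond them.

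The deepest losses included genes with little expression left in KO cells at every stage, such as Dpysl5 and Fcrl6. Others kept more at stage IV, such as Rhpn1 with a KO mean of 22.3 CPM. The 15 lowest averages, among called genes of at least 1 CPM whose libraries did not overlap at any stage, ran from -2.11 (Tuba8) to -5.21 (Dpysl5). Dpysl5, which encodes a collapsin response mediator protein known from neurons, had 0.0714, 0.16 and 0.0436 CPM in KO libraries at stage II, against 7.70, 9.43 and 7.88 CPM in WT libraries. At stage III it had 0, 0.481 and 0 CPM in KO libraries, against 5.18, 9.63 and 8.77 CPM in WT libraries, and at stage IV 0, 0.202 and 0.314 CPM in KO libraries, against 1.97, 2.88 and 2.99 CPM in WT libraries. Every KO library was below every WT library (adjusted p = 5.59e-06, SE 0.51). Fcrl6, an Fc receptor-like protein, was between 0 and 0.928 CPM in KO libraries and between 4.39 and 10.99 CPM in WT libraries, an average log2 fold change of -4.10 ± 0.32 (adjusted p = 3.75e-07). Ugt1a7c, a UDP-glucuronosyltransferase, was between 0.911 and 3.72 CPM in KO libraries and between 8.79 and 50.1 CPM in WT libraries, with -4.03 ± 0.32 (adjusted p = 3.75e-07). Its lowest WT values, 15.4 CPM at stage III and 8.79 CPM at stage IV, were both WT replicate 1. Ugt1a7c shares exons with other Ugt1a genes, so reads could have been split between them.

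A tight cluster on chromosome 1 (GRCm38, 21349641 to 21391101, plus strand) gave 5 of these 15: Khdc1a (-2.14), Gm16329 (-2.96), Khdc1c (-2.52), Khdc1b (-3.11) and Gm16328 (-3.42). The members are KH-domain genes known from oocytes and early embryos and a pair of their pseudogenes, at gaps of 1.8 to 13.2 kb from one to the next, and reads from such copies can be assigned to the wrong one. Khdc1b was between 0.12 and 0.523 CPM in KO libraries at stage II, against 5.90 to 8.47 CPM in WT libraries. At stage IV it was at 7.34, 10.9 and 9.87 CPM in KO libraries, against 29.2, 32.2 and 25.02 CPM in WT libraries. The level was higher at stage IV than at stage II in both genotypes, with KO below WT at each stage, as the rule for the 15 required.

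The other named losses covered surface receptors, a transcription factor and signalling genes. Mcam, the adhesion molecule CD146, averaged -2.16 ± 0.24 (adjusted p = 2.44e-05), with 0.999, 1.52 and 1.66 CPM in KO libraries at stage II, against 10.7, 12.7 and 12.8 CPM in WT libraries, and 34.2, 29.8 and 28.2 CPM in KO libraries at stage IV, against 89.5, 69.7 and 68.99 CPM in WT libraries. Cd300lf, an inhibitory receptor, averaged -3.13 ± 0.48 (adjusted p = 0.000615). Myb, a transcription factor of progenitors, averaged -2.31 ± 0.29 (adjusted p = 7.95e-05), with 0.444 to 7.35 CPM in KO libraries and 0.944 to 30.1 CPM in WT libraries. Against WT replicate 1 alone Myb was -1.77, and without that replicate -2.51. St5 (-2.48), a regulator of small GTPase signalling, Rhpn1 (-3.08), a rhophilin, Cyp17a1 (-2.70), a steroid hydroxylase, and Tuba8 (-2.11), an alpha tubulin, completed the group. The effect was smallest at stage IV in all of the 15 except Fcrl6, Ugt1a7c and Tuba8, as the plot of stage effects shows.

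The largest gains included a transcription factor of tissue residency, calcium-binding and actin-linked genes, and surface molecules. The 15 highest averages ran from 1.64 (Nrp1) to 3.49 (Zfp683). Zfp683 encodes Hobit, which with Blimp-1 sets up tissue residency in mouse lymphocytes. At stage II it had 35.8, 25.4 and 27.4 CPM in KO libraries, against 8.02, 6.56 and 8.74 CPM in WT libraries, and at stage IV 10.3, 8.93 and 5.50 CPM in KO libraries, against 0.164, 0.25 and 0.199 CPM in WT libraries. The average was 3.49 ± 0.39 (adjusted p = 2.68e-05). In both genotypes stage IV lay below stage II, and the fold between KO and WT was larger at stage IV (log2 5.29, against 1.93 at stage II), over WT levels of at most 0.25 CPM. Crybg2, whose annotated start lies 6.9 kb past the end of Zfp683 on chromosome 4, averaged 3.45 ± 0.38 (adjusted p = 1.96e-05).

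Nebl, encoding the actin-binding nebulette, was the gain with the smallest adjusted p (3.75e-07). It had 36.7, 43.8 and 48.1 CPM in KO libraries at stage II, against 12.99, 13.9 and 20.2 CPM in WT libraries. It had 56.1, 65.2 and 44.7 CPM in KO libraries at stage III, against 12.0, 11.1 and 13.4 CPM in WT libraries, and 30.3, 24.7 and 37.1 CPM in KO libraries at stage IV, against 11.05, 8.80 and 9.02 CPM in WT libraries. The lowest KO library was above the highest WT library of all stages, and the average was 1.77 ± 0.13. S100a4, a calcium-binding protein of motile cells, was between 18.1 and 79.9 CPM in KO libraries and between 7.76 and 14.4 CPM in WT libraries, again with no overlap across stages (1.93 ± 0.18, adjusted p = 4.46e-06). Itga1, the alpha chain of the collagen receptor CD49a and a marker of ILC1, averaged 1.65 ± 0.18 (adjusted p = 1.97e-05). Nrp1 (neuropilin-1, 1.64), Tnfsf8 (the CD30 ligand, 1.75), Tmem176a (1.78), the channel gene Aqp9 (2.13), Anxa8 (an annexin, 2.08), Pik3r6 (a PI3-kinase gamma regulator, 2.07), Cdc42ep1 (a Cdc42 effector, 2.39), Rhod (a small GTPase, 2.0003) and 1700017B05Rik (1.74) were also among them. Several gains were smaller against WT replicate 1 alone than without it: Anxa8 (1.42 and 2.54), Tnfsf8 (1.19 and 2.08), Itga1 (1.28 and 1.87) and Rhod (1.33 and 2.34). Aqp9 (2.40 and 1.89), S100a4, Nebl, Pik3r6 and 1700017B05Rik went the other way.

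**Figure D3:**
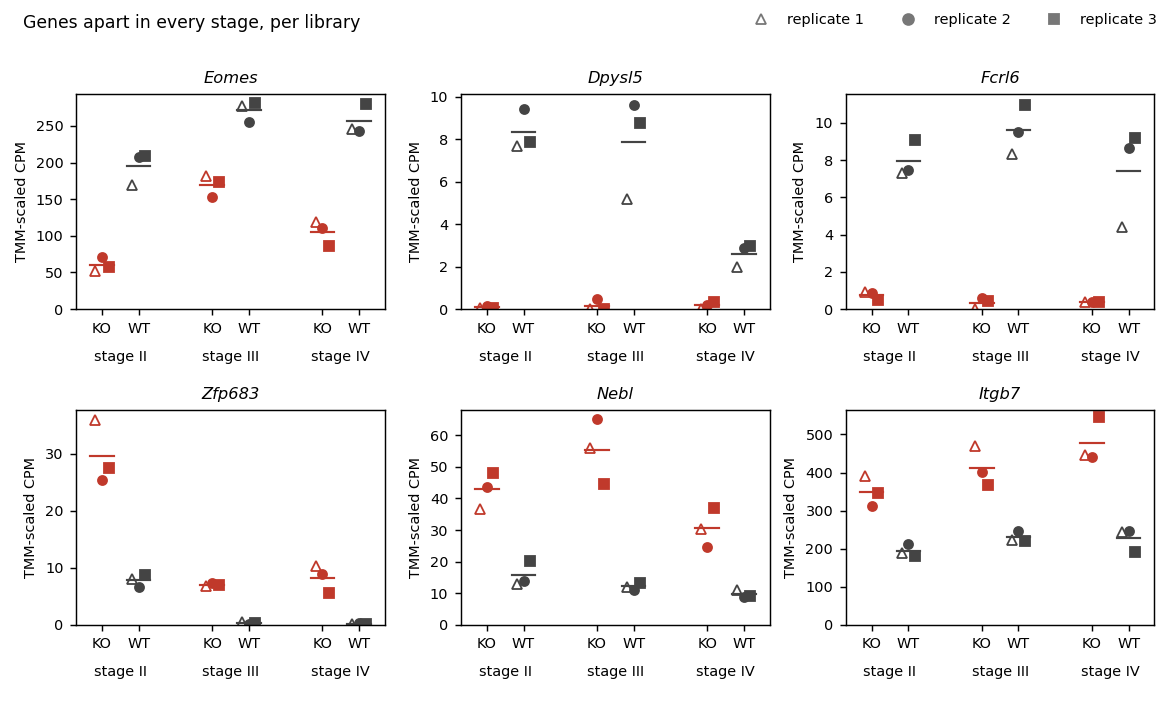
Each panel plots TMM-scaled CPM of 1 gene in every library, KO left of WT within each stage; triangles, circles and squares are replicates 1, 2 and 3, and bars are means of 3 libraries. Eomes, Dpysl5 and Fcrl6 lie lower and Zfp683, Nebl and Itgb7 higher in all KO libraries of each stage, with Nebl at 24.7 to 65.2 CPM in KO and 8.80 to 20.2 CPM in WT. For Dpysl5, Fcrl6, Zfp683 and Nebl the rule that chose them required this separation.

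**Figure D4:**
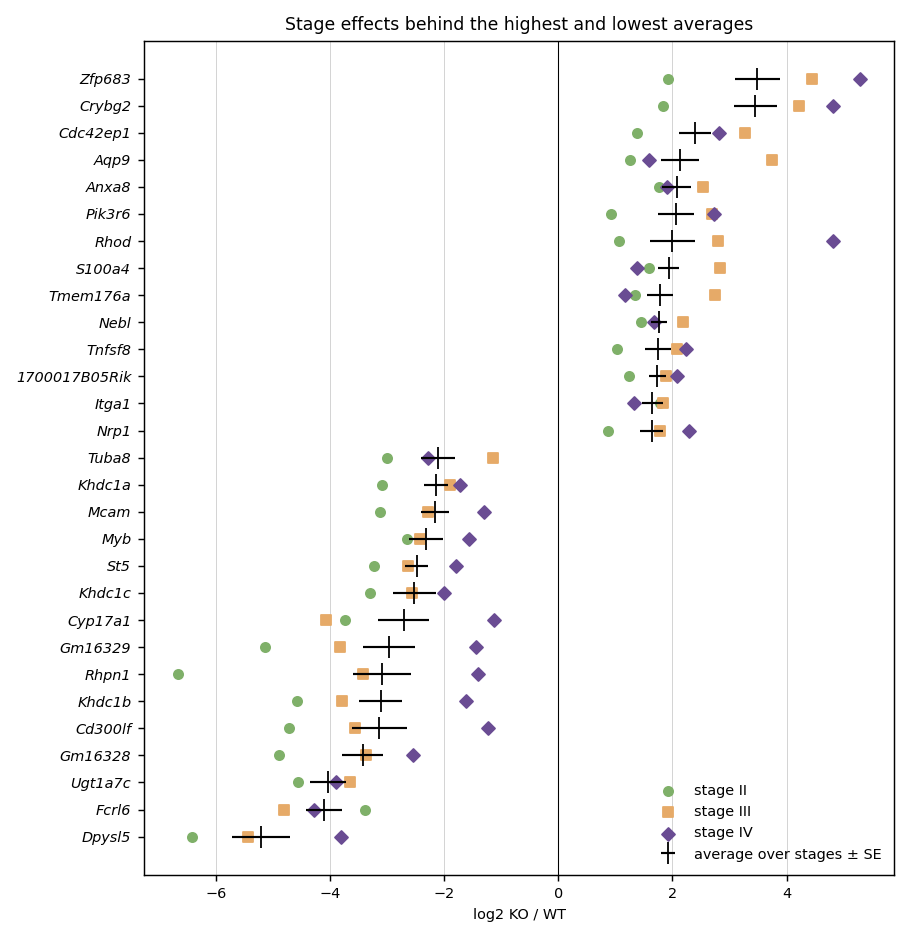
For genes among the 15 highest and 15 lowest averages, symbols give the log2 KO against WT effect at stage II, III and IV, and the black tick with its bar gives the average over stages ± SE. Each gene shown has the same sign at every stage, which the rule that chose these genes required. Zfp683 runs from 1.93 at stage II to 5.29 at stage IV and Rhpn1 from -6.66 at stage II to -1.40 at stage IV.

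The largest called values outside that rule rested on few libraries, and they were picked after their values were seen. Prss34, a protease of basophils and mast cells, had the highest called average (5.95, adjusted p = 0.0407), but only KO stage II replicate 2 (35.7 CPM) and KO stage III replicate 2 (67.5 CPM) held it, and every other library had at most 0.668 CPM. Ifitm1, an interferon-induced membrane protein (4.07, adjusted p = 0.00632), was highest in the same pair of libraries at 4.56 and 9.89 CPM. Gm28438, a pseudogene and the lowest called average (-5.74, adjusted p = 0.0327), had 1.96 to 3.01 CPM in WT replicate 1 and at most 0.045 CPM in the other WT libraries. The WT replicate behind Gm28438 is the same one that stood apart above.

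Among 31 NK cell transcription factors tested, 3 rose and 5 fell, and the median log2 fold change was -0.01, against 0.01 over all genes. This and the lists below were chosen with earlier results of these data known, and their counts are to be read beside the 4.05% called over all genes. Besides Zfp683, Ikzf2 (Helios) rose by 0.86 ± 0.12 (adjusted p = 0.000281), with 141, 161 and 145 CPM in KO libraries at stage II, against 75.4, 62.6 and 62.3 CPM in WT libraries. Tcf7, encoding TCF-1 of early lymphocytes, rose by 0.57 (adjusted p = 0.03), but its stage II libraries overlapped and it lost the call without any of 6 single libraries. Prdm1, encoding Blimp-1, averaged -0.82 ± 0.13 (adjusted p = 0.000605), Irf8 -0.65 (adjusted p = 0.0118) and Ikzf3 (Aiolos) -0.52 (adjusted p = 0.0122), and Eomes and Myb were the other falls. Prdm1 had 18.9, 18.1 and 18.1 CPM in KO libraries at stage II, against 29.2, 37.1 and 44.1 CPM in WT libraries, while at stage IV the genotypes overlapped. Tbx21, the other T-box factor, did not pass (0.21 ± 0.11, adjusted p = 0.328) and overlapped at every stage, with 92.2 to 274 CPM in KO libraries and 87.9 to 215 CPM in WT libraries. Zeb2, a factor of terminal maturation, did not pass either (-0.46, adjusted p = 0.191), with a stage effect of -0.90 at stage II and 0.24 at stage IV.

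Of 21 cytotoxic effector genes, 2 rose and 4 fell, with a list median of -0.34. Prf1, the pore-forming perforin, had 360, 372 and 303 CPM in KO libraries at stage II, against 597, 689 and 673 CPM in WT libraries. At stage III it had 611, 903 and 447 CPM in KO libraries, against 1545, 1692 and 1572 CPM in WT libraries, and at stage IV 1971, 2693 and 2350 CPM in KO libraries, against 2664, 2922 and 2615 CPM in WT libraries. KO was below WT without overlap at stages II and III and overlapped WT at stage IV, for an average of -0.81 ± 0.15 (adjusted p = 0.00319). Cma1, a mast cell-type chymase that mature mouse NK cells express, averaged -1.72 ± 0.36 (adjusted p = 0.00773). Stx11, a syntaxin of granule exocytosis (-0.46), and Serpinb9, a granzyme B inhibitor (-0.43), also fell, and Serpinb9 lost the call without any of 3 single libraries. Tnfsf10 (TRAIL) rose by 0.81 ± 0.13 (adjusted p = 0.00132) and Srgn, the granule proteoglycan serglycin, by 0.68 (adjusted p = 0.00242). Gzmb, granzyme B, did not pass at -0.32 ± 0.16 (adjusted p = 0.303). Without KO stage III replicates 1 and 3 the list had 2 rises and 6 falls, and against WT replicate 1 alone 1 fall.

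Of 31 other NK receptor and adaptor genes, 5 rose and 4 fell. Cd160 rose by 0.79 ± 0.12 (adjusted p = 0.000453), with no overlap at any stage, and Slamf7 by 0.41 (adjusted p = 0.00758), although it passed in no single stage. Cd7 (0.55), Lag3 (0.95) and Klrb1b (0.47) rose too. Klrc3, encoding NKG2E (-0.43), the inhibitory receptor gene Tigit (-0.80), Slamf6 (-0.82) and Ncr1 (-0.69, adjusted p = 0.0117) were the falls. The fall of Ncr1 was -0.04 ± 0.11 against WT replicate 1 alone and -0.93 without it, so this call rested on WT replicates 2 and 3. None of 13 Ly49 genes was called, 11 had a value below 0, the median was -0.35, and 8 had an unadjusted p under 0.05. For the Ly49 genes DESeq2 called 1 higher and 4 lower, voom with quality weights called 9 lower, and without KO stage III replicates 1 and 3 edgeR called 6 lower. Klra8 (Ly49H, -0.50, adjusted p = 0.0958), picked after its values were seen, had 367, 520 and 363 CPM in KO libraries at stage II, against 779, 1078 and 1136 CPM in WT libraries, while KO stage III values of 1016 to 1371 CPM overlapped WT values of 1158 to 1441 CPM. Ly49 genes are close copies, so reads may have been split among them.

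Markers of mature and of immature NK cells both included rises and falls. Of 13 mature markers 4 fell and 1 rose, with a median of -0.46. Itgam, which encodes CD11b and was a sorting marker, averaged -0.89 ± 0.22 (adjusted p = 0.0269) and lost the call without any of 6 single libraries. It had 20.8, 25.3 and 16.9 CPM in KO libraries at stage II, against 54.0, 50.3 and 40.8 CPM in WT libraries, and 105, 293 and 107 CPM in KO libraries at stage III, against 454, 440 and 396 CPM in WT libraries. The stage III libraries with 105 and 107 CPM were replicates 1 and 3, the pair with few detected genes. Ly6c2 was the rise (0.87, adjusted p = 0.0238). Of 14 immature markers 4 rose and 5 fell, with a median of -0.19. Il7r, the IL-7 receptor, rose by 1.06 ± 0.24 (adjusted p = 0.0137) and Cd93 by 1.32 (adjusted p = 0.00599), as did Tcf7 and Ly6e, whereas Ctla2a, a protease inhibitor-like gene, fell (-1.25 ± 0.16, adjusted p = 0.00012), and Slamf6, Thy1 and Ctla2b were among the other falls. Ctla2a and Ctla2b are close copies that may share reads. Leaving out any of 11 single libraries ended the call of Ly6e, any of 10 that of Thy1 and any of 15 that of Ctla2b. With the random block the list had 2 rises and 3 falls, and Tcf7, Ly6e, Thy1 and Ctla2b were not called (adjusted p = 0.0608, 0.124, 0.205 and 0.0577 in limma). Without WT replicate 1 the immature list had 1 rise and 2 falls. Cd27, the other sorting marker, did not pass (-0.36, adjusted p = 0.167).

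Trafficking receptors and integrins changed in both directions, with 5 rises and 7 falls among 24. Itgb7, the beta-7 integrin chain that pairs with alpha-4 or alpha-E, had 391, 312 and 345 CPM in KO libraries at stage II, against 190 (189.6), 212 and 181 CPM in WT libraries. At stage IV it had 445, 440.1 and 546 CPM in KO libraries, against 243, 247 and 192 CPM in WT libraries. Every KO library was above every WT library, and the average was 0.92 ± 0.08 (adjusted p = 1.88e-06), with stage effects of 0.85, 0.84 and 1.07. Itgb1 (0.47), Itga1, Gpr15 (1.90) and Cxcr6 (1.89, adjusted p = 0.00293) were the other rises. Cxcr6, a chemokine receptor of resident lymphocytes, had 362, 242 and 360 (359.8) CPM in KO libraries at stage II, against 361, 115 and 109 CPM in WT libraries, the 361 CPM being WT replicate 1, and it was 1.10 ± 0.46 against WT replicate 1 alone (adjusted p = 0.51). Ccr2 (-0.72), S1pr1 (-0.46), which guides exit from lymphoid organs, Itga2 (CD49b, -0.60), Mcam and Itgam were among the falls.

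ILC1 and tissue residency markers had the most calls in one direction of any list, 11 rises and 0 falls among 19 tested, with a median of 1.06. Beside Zfp683, Itga1, Tmem176a, Cxcr6 and Gpr15 these were Inpp4b, a lipid phosphatase (1.55 ± 0.22, adjusted p = 0.000327), Tmem176b (1.37), Tnfsf10, Il2ra (1.11), Il7r and Cd200r2 (1.07). Inpp4b was between 2.20 and 85.7 CPM in KO libraries and between 0.821 and 36.8 CPM in WT libraries, with KO above WT at every stage. All of the 11 except Gpr15 had their highest KO mean at stage II. The list was chosen with earlier results of these libraries known, so its direction is not independent evidence. DESeq2 also called 11 rises and 0 falls. Without WT replicate 1 there were 8 rises and 1 fall (Il21r, -0.55), without KO stage III replicates 1 and 3 there were 13 rises, and against WT replicate 1 alone Zfp683 was the 1 rise.

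Genes of IL-2 and IL-15 signalling showed 4 rises and 1 fall among 19. The feedback inhibitors Socs2 (0.98 ± 0.14, adjusted p = 0.000212), Cish (1.05 ± 0.15, adjusted p = 0.000327) and Socs1 (0.95, adjusted p = 0.03) rose, as did Il2ra, but Socs1 lost the call without any of 8 single libraries and with the random block (adjusted p = 0.0811 in limma). Cish had 56.6, 57.2 and 62.1 CPM in KO libraries at stage II, against 21.3, 20.1 and 19.4 CPM in WT libraries, and overlapped at stage IV. Jak1, the shared cytokine receptor kinase, fell by 0.41 ± 0.08 on the log2 scale (adjusted p = 0.00378). Il2rb, the receptor's beta chain, did not pass (-0.69 ± 0.24, adjusted p = 0.128). Among 11 cytokines and chemokines Tnf (1.45 ± 0.25, adjusted p = 0.00213), Lta (1.45) and Ccl9 (2.32) rose and none fell, 6 of the 11 having an unadjusted p under 0.05, and DESeq2 and voom with quality weights each called 1 fall. Ifng did not pass (-0.23 ± 0.23, adjusted p = 0.613), and its value was 0.48 against WT replicate 1 alone. Of 24 apoptosis regulators Bcl2a1d (1.03) and Fas (0.50) rose; Bcl2 (-0.17), Mcl1 (0.12) and Bcl2l11 (0.27), encoding survival factors and the death factor Bim, did not pass. No apoptosis gene fell in edgeR, 7 of the 24 had an unadjusted p under 0.05, DESeq2 called 1 fall and voom with quality weights 2.

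Calcium-binding and lipid- or sugar-binding proteins of the S100, annexin and galectin families had 3 rises and 1 fall among 16. S100a6 had 274, 271 and 266 CPM in KO libraries at stage II, against 120.0, 115 and 114 CPM in WT libraries, and rose by 1.10 ± 0.13 on average (adjusted p = 5.79e-05). Lgals3, galectin-3, averaged 1.62 ± 0.25 (adjusted p = 0.000601), with 336, 161 and 304 CPM in KO libraries at stage III, against 43.0, 41.7 and 44.5 CPM in WT libraries. Its highest values were in KO stage III replicates 1 and 3, and without that pair the average was 1.29. Anxa1 fell (-0.58, adjusted p = 0.021). Of 17 actin regulators Nebl and the severing protein gene Gsn (1.54 ± 0.18, adjusted p = 4.77e-05) rose and none fell, and DESeq2 and voom with quality weights each called 1 fall.

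Of 21 interferon-stimulated genes 5 rose, Ifit3 (0.76), Isg20 (0.83), Ifit1 (0.73), Ifitm3 (1.84) and Mx1 (0.59), and Irf7 fell (-0.44). Mx1 was 0.14 against WT replicate 1 alone. Leaving out any of 14 single libraries ended the call of Mx1, and any of 10 that of Irf7. With the random block neither was called (adjusted p = 0.0655 for Mx1 and 0.0743 for Irf7 in limma), and the list had 4 rises and 0 falls. Of 18 glycolysis genes Pfkp (-0.67) and Slc2a1 (-0.38), a phosphofructokinase and a glucose transporter, fell, but Slc2a1 lost the call without any of 10 single libraries and with the random block. Of 27 cell cycle genes 1 fell, the replication helicase gene Mcm7 (-0.38), where 1.86% of all genes were called lower. Mcm7 was 1 of the 45 genes described above. It was at 50.1, 44.0 and 47.8 CPM in WT replicate 1 at stages II, III and IV, and at 51.2 to 75.0 CPM in WT replicates 2 and 3. Neither list had a rise in edgeR, 4 and 7 members had an unadjusted p under 0.05, DESeq2 called 1 rise in each, and voom with quality weights called 1 rise among the cell cycle genes. The edgeR test called no gene among 22 respiratory chain genes (2 at an unadjusted p under 0.05, 1 by DESeq2), 20 immediate early and stress genes (4 and 2), 13 MHC class I and loading genes (2 and 0), 10 purine and prostaglandin genes (4 and 0), 8 mitochondrially encoded transcripts (2 and 0) and 10 sex-linked transcripts (1 and 0). Voom with quality weights called 1 respiratory chain and 1 sex-linked gene higher and 1 purine or prostaglandin gene lower, and the random block called 1 sex-linked gene higher. The median of the immediate early and stress genes was 0.02 with all libraries, 0.82 against WT replicate 1 alone and -0.31 without it. That no call was made does not show that these genes were equal. Against WT replicate 1 alone no list had more than 2 calls in either direction.

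**Figure D5:**
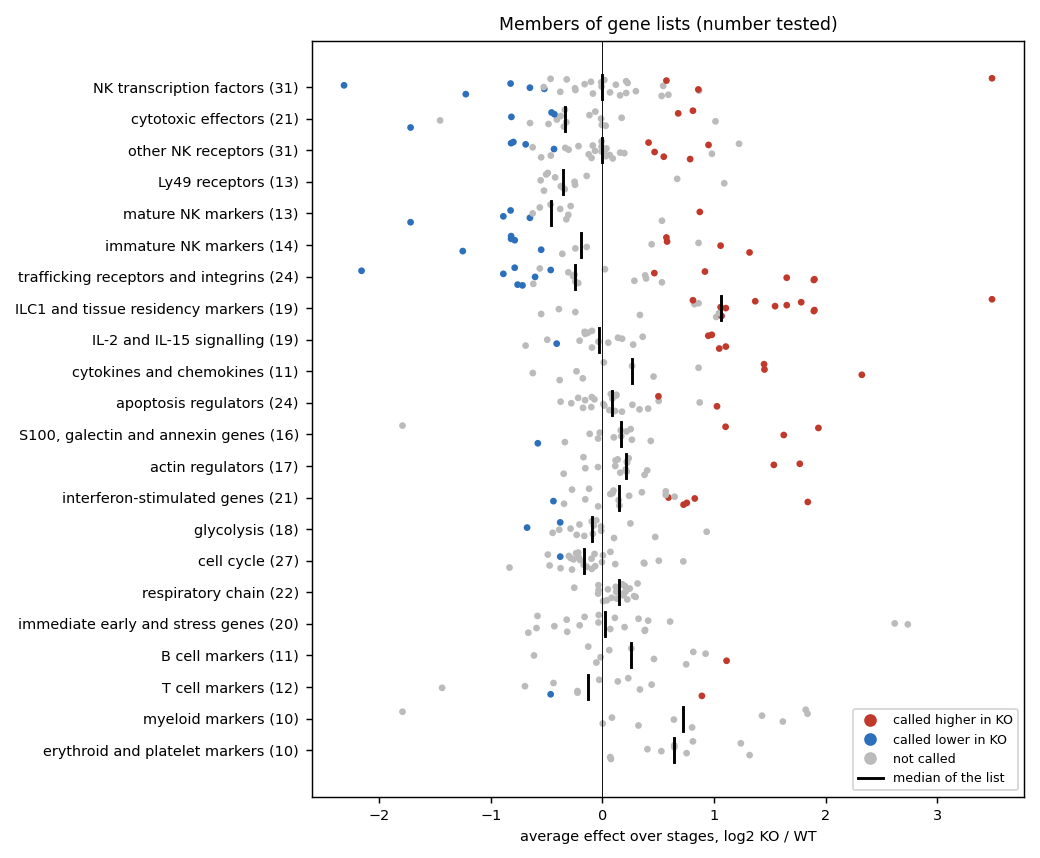
Each point is 1 tested member of a gene list at its average log2 KO against WT effect, red where called higher, blue where called lower and grey where not called; black bars are list medians. ILC1 and tissue residency markers have 11 red and 0 blue points around a median of 1.06, and mature NK markers 1 red and 4 blue points around -0.46.

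Markers of other cells were measured beside these changes, here in CPM without TMM scaling, and their part in them was not tested. B cell markers summed to 170.1 to 2097 CPM in KO libraries and 240 (239.9) to 1668 CPM in WT libraries, and 1 of 11 was called, Cd79b (1.11, adjusted p = 0.0019). T cell markers summed to 703 to 1304 CPM in KO libraries and 816 to 1486 CPM in WT libraries, and of 12 Camk4 rose (0.89) and Cd247 (CD3 zeta, also an NK cell adaptor) fell (-0.46). Myeloid markers summed to 258 to 658 CPM in KO libraries and 238 to 457 CPM in WT libraries, most of it Itgax, which NK cells also express, and Lyz2 reached 63.1 CPM in KO libraries and 7.95 CPM in WT libraries. Erythroid and platelet markers summed to 388 to 2831 CPM in KO libraries and 609 to 2160 CPM in WT libraries, nearly all of it Car2. Of 10 myeloid and 10 erythroid and platelet markers tested none was called by edgeR or DESeq2 and none had an unadjusted p under 0.05, although their medians were 0.72 and 0.64. Most of the B cell sum was Ighm, which reached 1319 CPM in KO libraries and 1018 CPM in WT libraries, and Cd74, which reached 743 CPM in KO libraries and 558 CPM in WT libraries. Cd79b reached 30.7 CPM in KO libraries and 14.1 CPM in WT libraries, and Igkc 40.4 CPM in KO libraries and 11.1 CPM in WT libraries. Other members were low: the B cell gene Cd79a reached 2.05 CPM in KO libraries and 1.37 CPM in WT libraries, the neutrophil gene S100a8 0.534 CPM in KO libraries and 1.22 CPM in WT libraries, and haemoglobin Hbb-bs 4.82 CPM in KO libraries and 2.15 CPM in WT libraries.

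The average and the single stages did not call the same genes. Fitted stage by stage, 207 genes were called at stage II (1.46%), 1119 at stage III (7.9%) and 72 at stage IV (0.509%), of which 146, 369 and 61 were among the 574. The stage III count includes KO replicates 1 and 3, the pair with few detected genes. Voom gave that pair the lowest quality weights of all libraries, 0.0878 and 0.119. What the pair contributes to the 1119 was not tested. Only 26 genes of the 574 were called at all 3 stages, 105 at a pair of stages, 288 at 1 stage and 155 at none. The 155 were smaller effects, with a median absolute log2 fold change of 0.59 against 0.80 in the others, and 39 of them did not overlap at any stage. Without KO stage III replicate 1, 2 or 3 the number called in no single stage was 303, 51 or 254. Prkd2, a protein kinase, led them by p: it had 65.6, 58.1 and 59.2 CPM in KO libraries at stage II, against 45.9, 39.3 and 39.5 CPM in WT libraries, and stage effects of 0.55, 0.55 and 0.60 that gave 0.57 ± 0.10 (adjusted p = 0.00157). Man2a2 (0.60), Slc30a9 (0.61), Sesn1 (0.37), Nagk (-0.54), Dusp22 (-0.67), Tmtc4 (-0.53), Kcnk10 (-1.49), Gm26580 (-0.91) and Gt(ROSA)26Sor (-2.88) followed, and Gt(ROSA)26Sor had 0.11 against WT replicate 1 alone. Sesn1 was also 1 of the 45 genes that split the WT libraries. It was at 164 to 224 CPM in KO libraries, 149 to 168 CPM in WT replicate 1 and 122 to 147 CPM in WT replicates 2 and 3. Of the 155, 91 were called with the random block, and 1 against WT replicate 1 alone. That random block called 466 genes in all (3.29%), 416 of them among the 574. In the other direction, 813 genes were called at a single stage or more but not in the average, 741 of them at stage III alone.

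The effect differed between stages for 26 genes (0.184%; interaction adjusted p under 0.05), and 1498 had an unadjusted interaction p under 0.05. The count rested on single libraries: without KO stage III replicate 2 it was 2751, and without replicate 1 or 3 of that group 52 or 47. It was 9 to 15 without KO stage II replicate 1 or 3, KO stage IV replicate 2 or 3, any WT stage III library, or replicate 2 or 3 of WT stages II and IV, and 9 without WT stage II replicate 2. Of the 26, 10 were also called in the average. Genes with both calls included Zfp683 (1.93, 4.44 and 5.29 at stages II, III and IV), Crybg2 (1.84, 4.22 and 4.81), S100a4 (1.595, 2.84 and 1.38), Ccr2 (-1.06, -1.20 and 0.13) and Thy1 (-0.18, -0.45 and -2.07). For these the average stands for no single stage: Thy1 was at 2.80, 2.75 and 3.34 CPM in KO libraries at stage IV, against 11.1, 15.1 and 11.3 CPM in WT libraries, while at stage II its libraries overlapped. A pair of genes was called in opposite directions at different stages and averaged near 0. Capn3, a calpain, was -1.59 at stage II and 0.94 at stage III (average 0.02 ± 0.32), and Car2, a carbonic anhydrase, was 0.55 at stage III and -0.67 at stage IV (average 0.07 ± 0.15).

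A smaller set was called under several settings at once. In all, 37 genes, 16 higher and 21 lower, were called in the average, against WT replicate 1 alone, without WT replicate 1, without KO stage III replicates 1 and 3, and with the random block. Besides Eomes, Dpysl5, Fcrl6, Ugt1a7c, Khdc1a, Khdc1b, Gm16328, Rhpn1, St5, Mcam and Ctla2a, the lower genes included Igf2r, the mannose-6-phosphate receptor (-1.23 ± 0.09), and Cd55, a complement inhibitor (-1.69 ± 0.15), picked with Ptpn6 after their values were seen. Igf2r was between 26.4 and 58.0 CPM in KO libraries and between 74.4 and 125 CPM in WT libraries. Cd55 had 19.0, 24.6 and 20.1 CPM in KO libraries at stage II, against 45.0, 78.3 and 77.0 CPM in WT libraries, with WT replicate 1 the lowest WT library at each stage. Besides Zfp683, Crybg2, S100a4, Nebl, Nrp1, Itgb7 and Lgals3, the higher genes included Ptpn6, the phosphatase SHP-1 that acts below inhibitory NK receptors (0.69 ± 0.08). Ptpn6 had 453, 467 and 466 CPM in KO libraries at stage II, against 348, 362 and 351 CPM in WT libraries, and 507, 538 and 533 CPM in KO libraries at stage IV, against 257, 309 and 274 CPM in WT libraries.

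Promoters were searched for the T-box element AGGTGTGA on either strand in windows from 250 bases before to 50 after RefSeq starts (GRCm38.p6). A gene counted if any of its windows held the letters, so genes with more starts had more chances of a match. Of 10197 tested genes with a window, 112 or 1.10% held it; of 189 genes called lower, 5 or 2.65%, and of 227 called higher, 3 or 1.32%. The shorter core GGTGTG, which the element contains, was in 21.04% of all these genes, 28.04% of those called lower and 27.8% of those called higher. The 4 genes that were called, did not overlap at any stage and held the element are shown with the element in capitals, to show where it lies in the window; the choice was made after their values were seen. Sema4a (chr3:88461133-88461432, minus strand), a semaphorin, averaged -0.40 ± 0.09 (adjusted p = 0.0156). The other windows of Sema4a lacked the element and are not shown. Mctp2 (chr7:72306546-72306845, minus strand) averaged -0.42 ± 0.11 (adjusted p = 0.034). Wfdc2 (chr2:164562465-164562764, plus strand) averaged -2.43 ± 0.53 (adjusted p = 0.0118) and had at most 1.55 CPM in any library. AA467197 (chr2:122637637-122637936, plus strand) averaged 1.68 ± 0.40 (adjusted p = 0.0197) and had at most 1.08 CPM in any library.
Sema4a: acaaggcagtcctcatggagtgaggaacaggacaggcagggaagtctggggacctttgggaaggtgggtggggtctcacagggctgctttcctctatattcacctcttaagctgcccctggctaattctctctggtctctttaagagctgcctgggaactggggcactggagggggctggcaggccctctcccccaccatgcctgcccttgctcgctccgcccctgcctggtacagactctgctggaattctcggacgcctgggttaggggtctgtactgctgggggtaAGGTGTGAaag
Mctp2: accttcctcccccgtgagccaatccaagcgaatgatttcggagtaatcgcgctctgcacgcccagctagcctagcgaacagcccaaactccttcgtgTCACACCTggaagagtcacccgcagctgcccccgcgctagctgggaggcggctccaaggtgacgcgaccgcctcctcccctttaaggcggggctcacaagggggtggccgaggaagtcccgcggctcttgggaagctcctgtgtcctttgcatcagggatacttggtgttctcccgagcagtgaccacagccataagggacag
Wfdc2: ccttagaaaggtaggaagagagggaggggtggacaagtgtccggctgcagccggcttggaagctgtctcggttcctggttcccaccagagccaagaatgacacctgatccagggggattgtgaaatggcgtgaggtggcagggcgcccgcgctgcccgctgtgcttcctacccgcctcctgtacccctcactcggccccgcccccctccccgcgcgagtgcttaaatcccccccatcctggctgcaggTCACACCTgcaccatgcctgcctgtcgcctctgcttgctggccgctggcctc
AA467197: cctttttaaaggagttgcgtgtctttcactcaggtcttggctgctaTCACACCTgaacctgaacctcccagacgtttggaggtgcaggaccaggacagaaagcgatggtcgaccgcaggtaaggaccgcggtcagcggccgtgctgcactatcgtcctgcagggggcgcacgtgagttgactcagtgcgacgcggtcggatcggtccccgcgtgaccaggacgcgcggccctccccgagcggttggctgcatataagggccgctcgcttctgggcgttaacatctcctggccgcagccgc
The element is printed as AGGTGTGA in Sema4a and as its reverse complement in the other 3. Sema4a, the most abundant of the 4, had 323, 288 and 259 CPM in KO libraries at stage II, against 339, 367 and 391 CPM in WT libraries. A match of these letters describes the window and says nothing of binding.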

How the data were processed

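RNA-seq was made from sorted NK cells, with 3 libraries per genotype and stage. Per the file headers the deposited tables give, for each gene, a read count, CPM and RPKM; the deposited CPM equal count over total count within a relative 5e-15, and the deposited RPKM equal CPM per kilobase within 6.5e-14. STAR 2.0.4 and featureCounts 1.4.5 of Subread were used, per the submitters' processing notes. Neither build nor strandedness of counting could be read from the labels or headers (not given in the sources used here); 40281 of 41388 gene positions overlap those of GENCODE M21, so positions are on GRCm38.

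Tests on the counts used edgeR 4.0.16 (R 4.3.3; quasi-likelihood, TMM scaling, filterByExpr on the 6 groups, stage plus genotype), with Benjamini-Hochberg adjustment over 14156 genes and a threshold of 0.05. Stage effects and their differences came from 6 group means. Standard errors are the absolute log2 fold change over the root of F, and fitted folds carry a prior count of 0.125. The step was tested on simulated counts of independent libraries. These lacked the shared deviations by replicate number and the differences between WT libraries, so that test says nothing of their effect. DESeq2 1.42.0, limma 3.58.1 (voom), other scalings and filters and left-out libraries were alternatives. Figures used matplotlib 3.10.9. Totals of 18684350 to 28365837 counts limit precision by counting error only.

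Named are Eomes, the 15 highest and 15 lowest averages among called genes of at least 1 CPM whose libraries did not overlap at any stage, the 10 smallest p-values among genes called in no single stage, up to 5 called genes per list and direction, genes called in opposite directions, and 11 genes of known interest. A few genes that this rule names are not reported here. Genes outside it are described as picked after their values were seen. The comparison, lists and rule were chosen with earlier results of these data known.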

Additional observations from a re-analysis of the deposited data

Results flagged for a closer look

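The genotype effect differed between stages for these named genes, by the interaction test of edgeR with Benjamini-Hochberg adjustment. Effects are log2 KO against WT at stages II, III and IV. Ccr2 had an interaction adjusted p of 0.00186 and effects of -1.06, -1.20 and 0.13. Thy1 had 0.00864, with -0.18, -0.45 and -2.07, and Zfp683 had 0.00911, with 1.93, 4.44 and 5.29. Ccr2 was called lower at stages II and III but not at stage IV, whereas the value of Thy1 was lowest at stage IV. Crybg2, Tmem176b and Capn3 each had an interaction adjusted p of 0.014. Tmem176b effects were 1.25, 2.31 and 0.50, and Capn3 effects -1.59, 0.94 and 0.67. Car2 had 0.0241, with 0.31, 0.55 and -0.67. S100a4 had 0.0298, with 1.595, 2.84 and 1.38. Gpr15 and Rhpn1 each had 0.0415. Gpr15 effects were 1.28, 3.48 and -0.21, and Rhpn1 effects -6.66, -3.42 and -1.40.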

How the results depend on the processing

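Of the 574 genes, 573 or 574 kept their sign in each alternative that tested them all, except replicate number 1 alone with 568. The alternatives reuse libraries that gave the 574, so kept signs are no independent support. Counts moved more. Against 574 genes called (311 higher, 263 lower), DESeq2 called 996 (541 and 455), voom with quality weights 1298 (708 and 590), counts summed over stages 259 (149 and 110), stages other than II 209 (112 and 97), other than III 344 (167 higher), other than IV 328 (177 and 151), WT replicate 1 alone 43 (20 and 23), WT replicate 2 alone 106 (55 and 51) and WT replicate 3 alone 116 (61 and 55). Replicate number 1 alone called 0 (0 higher and 0 lower; 920 at an unadjusted p under 0.05), with Eomes at -1.14. Leaving out 1 library, or the 3 libraries of one genotype and replicate number (a replicate set), gave 193 to 724 calls, 93 to 413 higher and 100 to 326 lower. The labels do not say what the libraries of such a set shared. The fewest calls were without WT replicate set 2 (193) and 3 (270), and without WT stage III replicate 2 there were 378. With the replicate block 689 were called, 561 of them among the 574; 7 of 9 same-numbered KO and WT pairs of a stage correlated over 0.1. As not every pair did, and the labels tie no number to an experiment, the block is an alternative only. Same-numbered libraries of one genotype at different stages had a median r of 0.43, against -0.24 for other numbers, and are not independent.

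Stage-dependent genes, 26 in the analysis reported, numbered 1509 without a filter on low counts, 42 with 1 CPM in 9 libraries, 206 by DESeq2, 527 with quality weights, 70 with the random block, 109 without KO stage III replicates 1 and 3, 0, 106 and 2 without stage II, III and IV, 0 with each WT replicate alone, and 0 to 2751 with 1 library or replicate set left out, the most without KO stage III replicate 2. Genes called in no single stage, 155 in the analysis reported, numbered 82 without a filter, 441 with quality weights, 78 with the random block, 342 without KO stage III replicates 1 and 3, 41, 77 and 93 against WT replicates 1, 2 and 3 alone, and 51 to 303 with 1 library or replicate set left out.

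Values near 0 turned. Capn3 (0.02) was -0.62 with quality weights, -0.34 with the random block, -0.35 for summed counts, -0.32 without KO stage III replicates 1 and 3, -0.51 without stage III, -0.34 without stage IV, -0.34, -0.14 and -0.14 against WT replicates 1, 2 and 3 alone, and -0.17 to 0.23 with 1 library or replicate set left out. Car2 (0.07) was -0.066 with quality weights, -0.092 without KO stage III replicates 1 and 3, -0.066 without stage II, -0.17 without stage III and -0.011 against WT replicate 1 alone. Bcl2 (-0.17) was 0.014 without KO stage III replicates 1 and 3 and 0.0014 without stage III. With replicate number 1 alone, Xist (0.53) was -0.60, Ifng (-0.23) 0.024, Gt(ROSA)26Sor (-2.88) 0.10, Ncr1 0.062 and Mx1 -0.14. Against WT replicate 1 alone, Xist was -1.07, Ifng 0.48, Gt(ROSA)26Sor 0.11 and Gzmb 0.035. Ifng was 0.055 without stage IV, and Xist -0.064 to 5.96 with 1 library or replicate set left out. The cause of these moves was not tested.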

Other observations

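Textbook p53 target genes, a list chosen after values were seen and so described without a test, were compared between the WT libraries. Of 20 listed, 19 were tested. Of these, 13 had every WT replicate 1 library above every library of WT replicates 2 and 3. How many of all genes did so was not counted, so the 13 cannot be judged against a background. In 6 of the 19 every KO and every WT replicate 1 library lay above WT replicates 2 and 3, and in 32 of all 14156 genes tested. As the list was chosen after these values were seen, its share cannot be judged against that of all genes. Ccng1, which encodes cyclin G1, was at 157 to 207 CPM in KO libraries, 154 to 173 CPM in WT replicate 1 and 77.9 to 92.0 CPM in WT replicates 2 and 3. Phlda3, an Akt inhibitor, was at 3.50 to 29.4 CPM in KO libraries, 2.42 to 8.70 CPM in WT replicate 1 and 0.151 to 0.548 CPM in WT replicates 2 and 3. Others did not divide the WT libraries this way. Plk2, a polo-like kinase, was at 45.0 to 242 CPM in KO libraries, 33.3 to 44.8 CPM in WT replicate 1 and 86.5 to 248 CPM in WT replicates 2 and 3. Cdkn1a, encoding p21, had medians of 57.3 CPM in KO libraries, 40.7 CPM in WT replicate 1 and 40.6 CPM in WT replicates 2 and 3. Bbc3, encoding Puma, had medians of 9.35 CPM in KO libraries, 5.53 CPM in WT replicate 1 and 7.90 CPM in WT replicates 2 and 3. Ccng1 and Sesn1 were the 2 called in the average.

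Immediate early and stress genes, which respond quickly to stimulation and cell handling, also divided the libraries. Their sums are given in CPM without TMM scaling. They summed to 4490 to 5109 CPM in KO replicate 1, 9700 to 13329 CPM in KO replicate 2 and 4840 to 7417 CPM in KO replicate 3. The WT sums were 4098 to 4526 CPM in replicate 1 and 8310 to 11842 CPM in replicates 2 and 3. Values of the single genes that follow are TMM-scaled. Atf3, a stress-induced transcription factor, was at 1.94 to 275 CPM in KO libraries, 2.78 to 4.76 CPM in WT replicate 1 and 79.9 to 249 CPM in WT replicates 2 and 3. Nr4a1, a nuclear receptor, was at 73.0 to 1294 CPM in KO libraries, 55.8 to 102 CPM in WT replicate 1 and 508 to 938 CPM in WT replicates 2 and 3. Cd69, an activation antigen outside that list, was at 46.6 to 1319 CPM in KO libraries, 66.6 to 145 CPM in WT replicate 1 and 493 to 1016 CPM in WT replicates 2 and 3. These 3 genes were picked after their values were seen, and the part of this difference in the genotype comparison was not tested.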
